A study of Mus musculus with 12 samples.

Results

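The 10 genes described here are the glucocorticoid receptor gene Nr3c1, the mineralocorticoid receptor gene Nr3c2, the steroid-activating enzyme gene Hsd11b1, the glucocorticoid-induced genes Fkbp5, Tsc22d3, Sgk1, Per1 and Zbtb16, and the metallothionein genes Mt1 and Mt2. They were taken by symbol, 10 of the 40853 symbols in the count tables. RNA came from microglia and astrocytes sorted by flow cytometry from whole brains of mice aged 8 to 9 weeks, labelled WT or KPNA4 KO (knocked out for Kpna4, which encodes importin α4, an adaptor of nuclear import). All mice, WT included, were injected into the peritoneal cavity with lipopolysaccharide (LPS, an inflammatory stimulus from bacteria) at 1 mg/kg, 20 h before dissection, and uninjected mice were not analysed here. Both cell types were taken from each of 6 animals, 3 per genotype, so the 4 groups (microglia WT, microglia KO, astrocytes WT, astrocytes KO) held 3 libraries each and the KO and WT comparisons of the 2 cell types rest on the same animals. The sources used here do not describe the knockout allele.

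Library totals were 10.3 M to 14.5 M counts (microglia) and 10.7 M to 15.6 M (astrocytes). Levels are given in CPM, the usual scaling of counts to the library total. The sorted types matched their labels: 10 microglia markers summed to 14940 to 19620 CPM in microglia and 216 to 621 CPM in astrocytes, and 10 astrocyte markers to 17590 to 23480 CPM in astrocytes and 357 to 757 CPM in microglia. RNA of other cells was also read: 8 oligodendrocyte lineage markers summed to 885.5 to 4022 CPM in astrocytes and 279.8 to 1740 CPM in microglia. Kpna4 itself was read in both genotypes (log2 fold change of KO over WT -0.31 in microglia, edgeR adjusted p 0.778, and 0.47 in astrocytes, adjusted p 0.999), and since the deleted stretch is not given, these counts do not check the labels. In 1 library, microglia WT 1, the 15 immediate early and heat shock genes that tissue dissociation induces summed to 34670 CPM, against 12070 to 14980 CPM in the other microglia. Abundant non-coding RNAs took 39.5% of the counts of astrocytes KO 2 and 26.2% to 31.98% of those of the other astrocytes.

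Corticosterone, the main glucocorticoid of mice, binds the glucocorticoid receptor in the cytoplasm, where chaperones hold it ready. The bound receptor moves into the nucleus and switches genes on through glucocorticoid response elements, while restraining many inflammatory genes, and systemic LPS is a strong stimulus of corticosterone release. The mineralocorticoid receptor binds the same hormone more tightly, and the enzyme encoded by Hsd11b1 regenerates active hormone inside cells. Fkbp5 encodes a co-chaperone that lowers the receptor's affinity for hormone, Tsc22d3 the anti-inflammatory protein GILZ, Sgk1 a kinase that acts on ion transport and cell survival, Per1 a repressor of the circadian clock and Zbtb16 the zinc finger transcription factor PLZF. Metallothioneins bind zinc and copper and buffer oxidants, and their genes respond to zinc through the factor MTF1 as well as to glucocorticoids and inflammation.

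Promoters were searched for short motifs in the 250 bases before each annotated start, in 16 windows from RefSeq (GRCm38.p6). The windows covered 8 of the 10 genes, all but Nr3c1 and Zbtb16. The 4 windows shown are the only one of the 16 that held a full palindromic glucocorticoid response element (Sgk1, start 5), both metallothionein promoters and that of Fkbp5. Capitals mark matches on either strand to the full element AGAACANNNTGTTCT or its 6-base arm AGAACA, to the metal response element cores TGCACNC and TGCGCNC, and to the E-box CACGTG. The sequences run 5′ to 3′ on the gene's strand and end at the base before the start.
Sgk1 start 5, chr10:21993640-21993889, plus strand: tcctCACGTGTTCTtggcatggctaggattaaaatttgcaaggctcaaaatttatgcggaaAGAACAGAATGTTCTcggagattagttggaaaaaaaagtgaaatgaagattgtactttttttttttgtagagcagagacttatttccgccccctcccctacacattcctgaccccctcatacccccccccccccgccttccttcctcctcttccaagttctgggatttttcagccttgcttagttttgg
Mt1, chr8:94178839-94179088, plus strand: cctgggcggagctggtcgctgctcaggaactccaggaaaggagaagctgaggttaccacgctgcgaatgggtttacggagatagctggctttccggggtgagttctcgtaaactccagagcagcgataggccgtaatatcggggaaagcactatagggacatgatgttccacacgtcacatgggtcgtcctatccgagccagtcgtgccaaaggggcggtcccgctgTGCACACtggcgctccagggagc
Mt2, chr8:94172368-94172617, plus strand: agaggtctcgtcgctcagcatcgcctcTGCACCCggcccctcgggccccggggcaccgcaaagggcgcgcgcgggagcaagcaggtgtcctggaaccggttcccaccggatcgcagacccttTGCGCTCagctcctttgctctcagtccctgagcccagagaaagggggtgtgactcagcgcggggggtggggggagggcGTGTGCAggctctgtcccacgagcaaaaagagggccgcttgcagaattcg
Fkbp5, chr17:28486150-28486399, minus strand: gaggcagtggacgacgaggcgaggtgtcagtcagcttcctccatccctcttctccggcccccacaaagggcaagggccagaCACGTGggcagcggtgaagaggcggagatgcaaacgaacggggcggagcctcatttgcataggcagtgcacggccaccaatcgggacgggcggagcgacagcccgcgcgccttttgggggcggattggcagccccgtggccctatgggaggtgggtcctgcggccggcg
The full element of the Sgk1 window begins 189 bases before the start, and 3 of the 32851 promoter windows in the RefSeq table (0.00913%) held these letters. In the same window an E-box, 246 bases before the start, overlaps a separate match to the arm that lies upstream of the full element. The arm alone, which every full element contains, occurred in 16.1% of all windows. The Mt2 window held 3 metal response cores, 223, 128 and 50 bases before its start, and the Mt1 window held 1, at 23 bases. Each gene had 1 start in the RefSeq table, and the bases after it were not searched. The counts thus hold for these windows and do not compare the metal response elements of the 2 promoters as wholes. The bases after the Mt2 start were not found in a GENCODE transcript of Mt2, unlike those of Sgk1 start 5, Mt1 and Fkbp5. The Mt2 window and its distances thus rest on the RefSeq start alone. At least 1 core occurred in 21.4% of all windows and at least 3 in 1.26%. Fkbp5 held an E-box at 169 bases, a motif in 6.02% of all windows, and no match to the other motifs. Windows not shown held matches too. Nr3c2, Hsd11b1 and Per1 start 2 each held 1 metal response core, and Per1 start 1 held an E-box. Tsc22d3 start 2 and Sgk1 starts 1 and 4 each held 1 arm. These matches describe letters in a short window and no binding was measured.

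Which glial type carries the machinery and the targets of the hormone was read from the contrast of the 6 astrocyte with the 6 microglia libraries, all after LPS. All 10 genes passed the test, 6 of them higher in astrocytes and 4 higher in microglia (edgeR quasi-likelihood test, Benjamini-Hochberg adjusted p under 0.05, as in all calls below). Of the 17294 genes tested, 64.6% were called in this contrast, 36.4% higher in astrocytes and 28.2% higher in microglia, so most genes differed between these cell types. Their differences spanned the scale from 7.54 (Hsd11b1) to -3.73 (Sgk1) on the log2 scale of astrocytes over microglia, with a median over all genes tested of 0.19. CPM of the cell types did not overlap in 8 of the 10 genes, 5 higher in astrocytes and 3 higher in microglia, against 46.5% of all genes tested (21.7% and 24.9%). A lower level in a bulk library cannot tell fewer expressing cells from less RNA per cell.

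**Figure D1:**
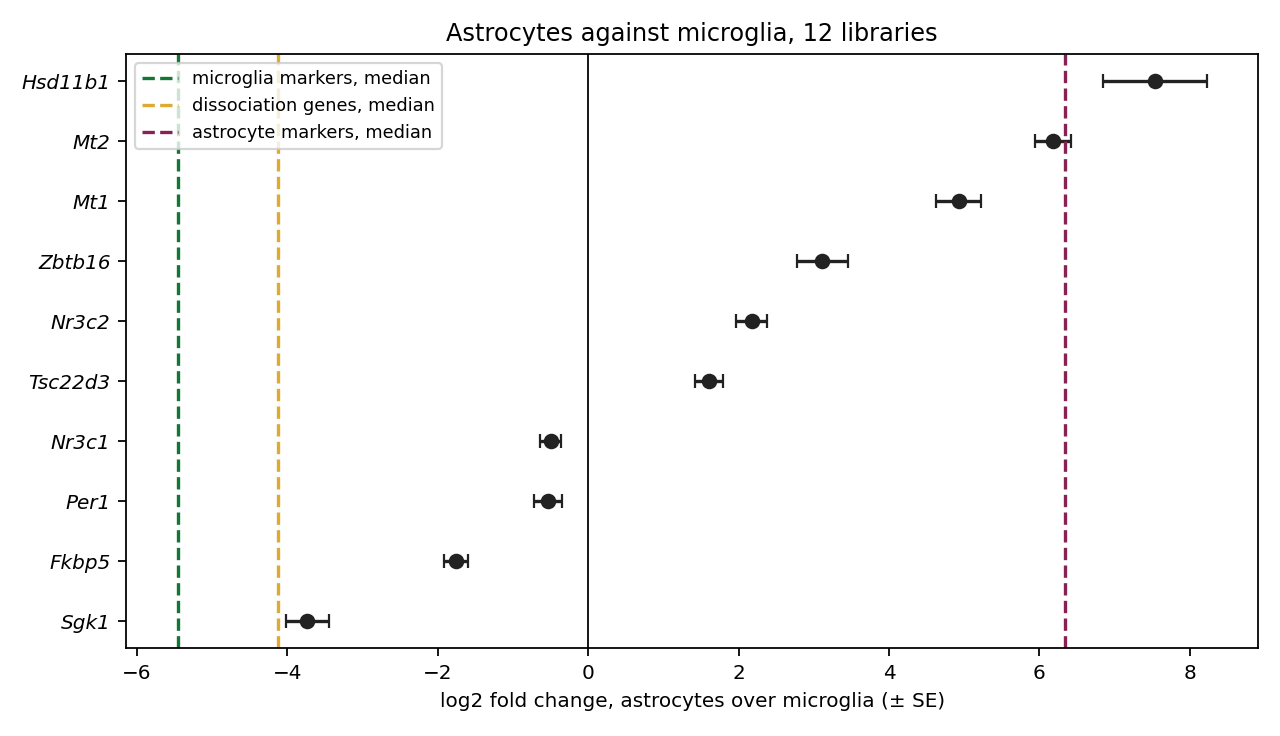
Log2 fold change of astrocytes over microglia for each of the 10 genes (points, bars ± SE, 12 libraries), with the median of 10 microglia markers, 15 dissociation-induced genes and 10 astrocyte markers as dashed lines. Hsd11b1, at 7.54, lies beyond the astrocyte marker median of 6.34, and Sgk1, at -3.73, lies near the dissociation gene median of -4.13.

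Both receptor genes were read in both cell types, and they leaned opposite ways. Nr3c1 was at 137, 169 and 172 in WT and 150.0, 159 and 199 CPM in KO microglia, and at 100.1, 79.4 and 110.3 in WT and 99.5, 89.2 and 93.4 CPM in KO astrocytes. Every microglia library lay above every astrocyte library, and the genotypes overlapped within each cell type. Nr3c1 was 1.41-fold higher in microglia (log2 fold change of astrocytes over microglia -0.50, SE 0.14, edgeR adjusted p 0.00539). Nr3c2 was at 14.7, 11.6 and 18.0 in WT and 9.69, 15.8 and 9.16 CPM in KO microglia, and at 47.8, 42.4 and 52.6 in WT and 48.3, 40.6 and 61.1 CPM in KO astrocytes. It was 4.51-fold higher in astrocytes (log2 2.17, SE 0.20, edgeR adjusted p 2.62e-07), again with no overlap. Per kilobase of transcript, the Nr3c1 level was 8.54 to 19.9 times that of Nr3c2 in microglia and 1.40 to 2.01 times in astrocytes.

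Hsd11b1 differed most between the cell types. Its level was 81.9, 55.4 and 46.5 in WT and 99.0, 84.3 and 59.8 CPM in KO astrocytes. In microglia WT 1, 2 and 3 it had 9, 0 and 0 counts, and in microglia KO 1, 2 and 3 it had 0, 28 and 3 counts. A count of 0 allows up to 3 counts, or 0.207 to 0.291 CPM at the depths of the microglia libraries. The difference between cell types was 7.54 on the log2 scale (SE 0.69, edgeR adjusted p 2.11e-07), 186-fold, and in microglia this estimate rests on those 9, 28 and 3 counts. It was 9.71 without the animal WT 1 and 8.64 without KO 2, and 7.02 to 7.23 without each of the other animals.

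The 5 hormone-induced genes fell into both camps, Sgk1, Fkbp5 and Per1 higher in microglia and Tsc22d3 and Zbtb16 higher in astrocytes. Sgk1 was at 322, 179 and 160.2 in WT and 211, 244 and 203 CPM in KO microglia, and at 20.4, 7.40 and 23.1 in WT and 11.9, 6.70 and 15.9 CPM in KO astrocytes. It was 13.3-fold higher in microglia (log2 -3.73, SE 0.29, edgeR adjusted p 3.84e-08). Its top library, microglia WT 1, is also the one with the highest sum of dissociation-induced genes; all 15 of those genes were called higher in microglia, with a median log2 difference of -4.13, and their part in the level of Sgk1 was not tested. Without that animal, Sgk1 was still lower in astrocytes, at -3.59 (edgeR adjusted p 5.10e-07). In astrocytes the oligodendrocyte lineage markers summed to 1766, 885.5 and 4022 in WT and 1201, 911.4 and 1872 CPM in KO libraries. Their part in the astrocyte level of Sgk1 was not tested.

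Fkbp5 was at 75.7, 79.1 and 84.1 in WT and 138, 114 and 132 CPM in KO microglia. In astrocytes it was at 15.2, 22.4 and 20.1 in WT and 37.8, 22.7 and 34.6 CPM in KO libraries. Microglia exceeded astrocytes 3.38-fold (log2 -1.76, SE 0.15, edgeR adjusted p 1.31e-07), with no overlap. Per1 was at 118, 105 and 68.4 in WT and 108, 113 and 92.9 CPM in KO microglia, and at 49.7, 60.4 and 76.5 in WT and 67.7, 31.4 and 63.8 CPM in KO astrocytes. It was higher in microglia in 5 of the 6 animals, by 1.45-fold (log2 -0.54, SE 0.19, edgeR adjusted p 0.0197), and its libraries overlapped. Without the animal WT 1 the log2 difference of Per1 was -0.36 (edgeR adjusted p 0.127), the only call among the 10 genes that any alternative ended.

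Tsc22d3 was at 46.2, 36.2 and 34.5 in WT and 41.5, 80.2 and 44.6 CPM in KO microglia, and at 79.3, 87.8 and 109 in WT and 165, 132 and 149 CPM in KO astrocytes. Astrocytes were above microglia in 6 of 6 animals (log2 1.61, SE 0.19, edgeR adjusted p 2.98e-06), though the microglia library KO 2 reached above the lowest astrocyte library. Zbtb16 was low in microglia, at 3.47, 2.96 and 1.90 in WT and 6.30, 1.42 and 4.20 CPM in KO libraries, from 17 to 65 counts. In astrocytes it was at 24.3, 16.3 and 24.0 in WT and 28.1, 21.2 and 30.5 CPM in KO libraries, 8.66-fold higher (log2 3.11, SE 0.34, edgeR adjusted p 1.48e-06).

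Both metallothionein genes were higher in every astrocyte library than in any microglia library. Mt1 was at 1395, 1486 and 783 in WT and 1645, 2249 and 899 CPM in KO astrocytes, against 63.6, 52.1 and 61.7 in WT and 52.9, 58.5 and 56.5 CPM in KO microglia. That is a 30.4-fold difference (log2 4.92, SE 0.30, edgeR adjusted p 3.01e-09). Mt2 was at 104, 146 and 116 in WT and 153, 175 and 161 CPM in KO astrocytes. In microglia Mt2 was at 0.679, 1.71 and 1.67 in WT and 4.46, 4.68 and 3.65 CPM in KO libraries, so astrocytes were 72.5-fold higher (log2 6.18, SE 0.24, edgeR adjusted p 8.59e-11). Of their relatives, Mt3, the metallothionein of brain, was at 151 to 204 CPM in astrocytes and 1.86 to 6.56 CPM in microglia (log2 5.84, SE 0.30, edgeR adjusted p 6.89e-10), and Mt4, known from stratified epithelia, had 0 counts in all 12 libraries.

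The ratio of Mt1 to Mt2 counts was 93.7, 30.6 and 36.9 in WT microglia and 11.9, 12.5 and 15.5 in KO microglia. In astrocytes it was 13.4, 10.2 and 6.77 in WT and 10.8, 12.9 and 5.59 in KO libraries. Only the WT microglia stood above the other 3 groups, with no library overlapping them. The annotated transcripts of Mt1 and Mt2 share 0 words of 31 bases, so reads spanning such a word belong to 1 of the genes. In WT microglia Mt2 rested on 9, 19 and 22 counts, which limits each ratio there. Astrocyte markers summed to 357 to 757 in WT and 379 to 403 CPM in KO microglia, against 17590 to 23480 CPM in astrocytes. The part of astrocyte RNA in the microglia levels of Mt1 and Mt2, and so in their ratio, was not tested.

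**Figure D2:**
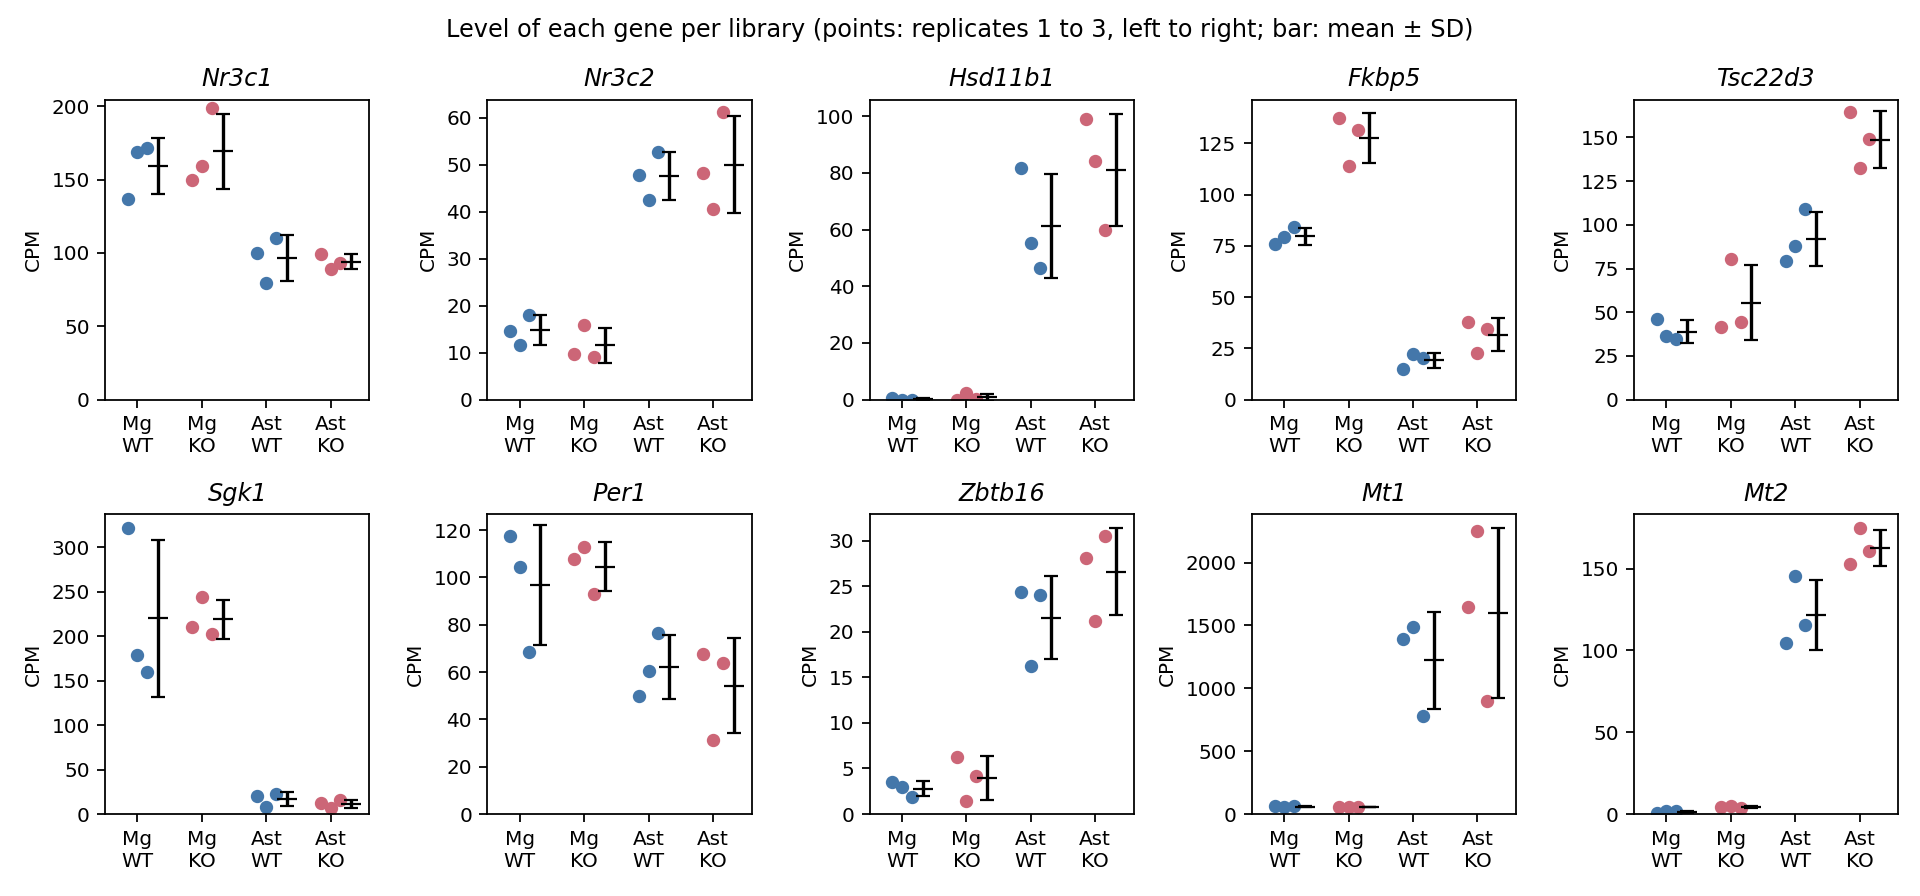
CPM of each of the 10 genes in every library (blue WT, red KO; Mg microglia, Ast astrocytes; points are replicates 1 to 3 from left to right, bars are mean ± SD, n = 3). The genotypes separate for Fkbp5 and Mt2 in both cell types and for Tsc22d3 in astrocytes, and each panel has its own axis from 0.

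Ranked by CPM per kilobase of transcript, Mt1 stood first in all 4 groups, at 108 ± 11.2 in WT microglia and 2225 ± 697 in WT astrocytes (SD, n = 3). What astrocyte RNA added to the microglia level and rank of Mt1 was not tested. In WT microglia Sgk1 followed at 89.7 ± 36.0, overlapping Mt1, and then Nr3c1, Fkbp5, Per1 and Tsc22d3 at means from 19.7 to 25.1, each overlapping its neighbour. Mt2 and Nr3c2 came next, at 2.65 and 2.55 and overlapping, then Zbtb16 at 0.729 and Hsd11b1 at 0.152. In WT astrocytes Mt2 was second at 239 ± 41.8, separated from Mt1 and from Tsc22d3 at 46.7 ± 7.80. Hsd11b1, at 41.1 ± 12.4, overlapped Tsc22d3, and Nr3c1 and Per1 overlapped at 15.3 and 13.4. In the last 4 places, Nr3c2 at 8.22, Sgk1 at 6.90, Zbtb16 at 5.65 and Fkbp5 at 5.21, each gene overlapped its neighbours in this order. Fkbp5 was thus at place 4 of 10 in WT microglia and at place 10 in WT astrocytes, and at places 3 and 8 in the KO groups. In KO microglia it overlapped Tsc22d3, the next gene down, and in KO astrocytes it overlapped both its neighbours, Nr3c2 and Zbtb16. These places are therefore not separated from those beside them.

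Whether loss of Kpna4 changes these genes under inflammation was read from KO against WT in each cell type. None passed the adjusted threshold: edgeR called 0 of the 9 genes tested in microglia and 0 of the 10 tested in astrocytes, where it called 0% of the 14191 and 0% of the 15755 genes in all. DESeq2 also called 0 of the 9 in microglia and 0 of the 10 in astrocytes. Hsd11b1 was too low for the test in microglia. At an unadjusted p under 0.05 there were 2 of the 9 in microglia, Fkbp5 and Mt2, against 7.42% of all genes (2.35% higher in KO), and 3 of the 10 in astrocytes, Tsc22d3, Fkbp5 and Mt2, against 2.37% of all genes (1.13% higher in KO). All 5 of these values were higher in KO. They come from Fkbp5, Mt2 and Tsc22d3 alone, and both cell types rest on the same animals. The genes were chosen with earlier results of these data known, so setting them against the shares of all genes is no test. The median log2 fold change was 0.08 over the 9 genes in microglia (all genes -0.0013) and 0.47 over the 10 in astrocytes (all genes -0.0068).

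**Figure D3:**
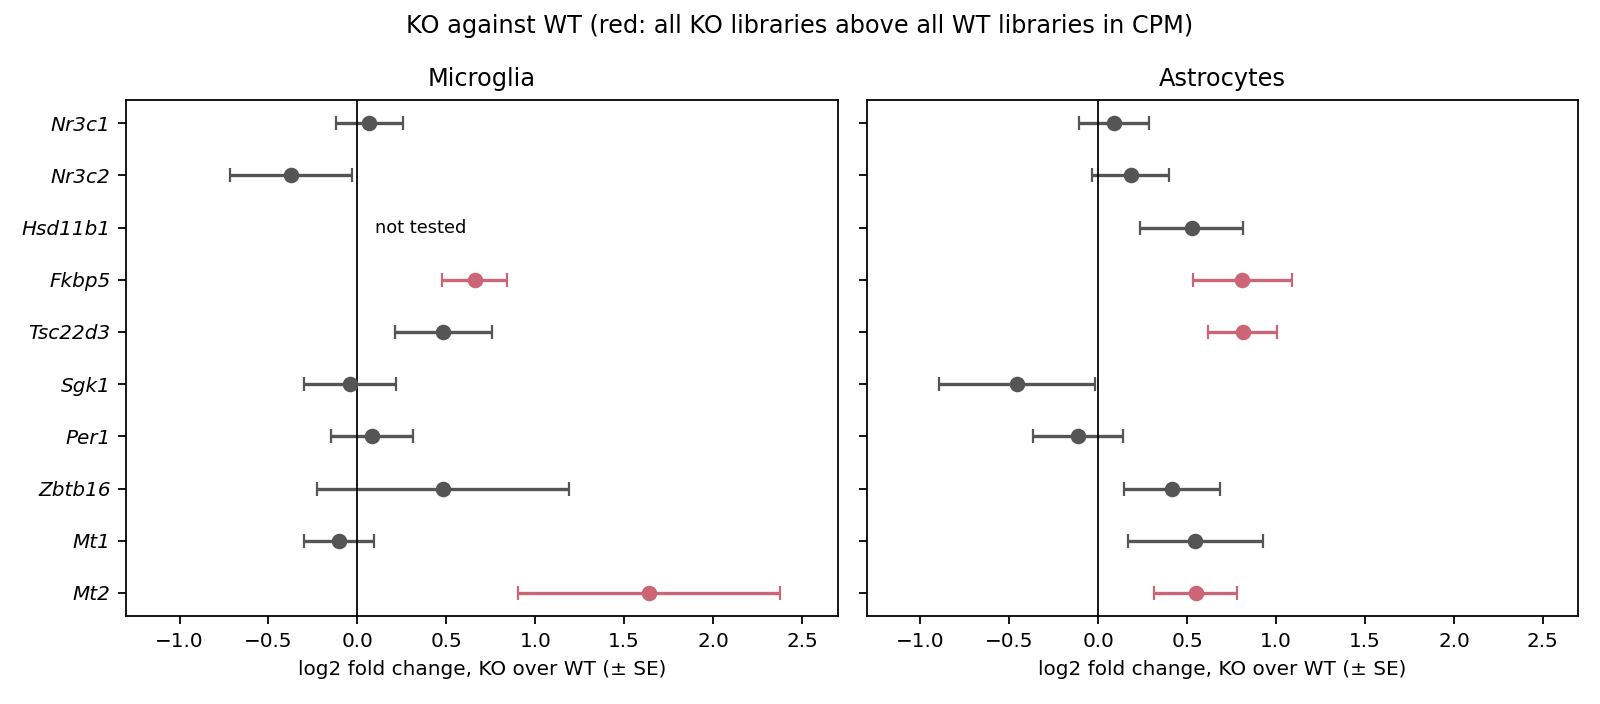
Log2 fold change of KO over WT (points, bars ± SE, 3 against 3 libraries) for each gene in microglia and in astrocytes. Genes in red had all KO libraries above all WT libraries in CPM, namely Fkbp5 and Mt2 in both cell types and Tsc22d3 in astrocytes, and no gene passed the adjusted threshold.

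Fkbp5 had its 3 KO libraries above its 3 WT libraries in both cell types, narrowly so in astrocytes, where KO 2 at 22.7 CPM lay just above WT 2 at 22.4 CPM. WT and KO means were 79.7 ± 4.24 and 128 ± 12.2 CPM in microglia and 19.2 ± 3.71 and 31.7 ± 7.96 CPM in astrocytes (SD, n = 3). In microglia KO was 1.58-fold higher, a log2 fold change of 0.66 (SE 0.18, unadjusted p 0.00302, edgeR adjusted p 0.542), and in astrocytes 1.76-fold higher, a log2 fold change of 0.81 (SE 0.28, unadjusted p 0.0132, edgeR adjusted p 0.999). Unadjusted p stayed under 0.05 in 13 of 13 alternatives in microglia (adjusted p 0.107 to 0.993) and in 12 of 13 in astrocytes, the exception being 0.0600 without WT replicate 1. Groups of 3 that do not overlap give an exact permutation p of 0.1, the smallest this design allows, and all KO libraries lay above all WT libraries in 6.53% of all genes tested in microglia and 2.39% in astrocytes. Of the 10 genes 0 had all KO libraries below all WT libraries, against 6.57% and 5.74% of all genes.

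Tsc22d3 in astrocytes averaged 92.1 ± 15.4 in WT against 149 ± 16.3 CPM in KO libraries (SD, n = 3), with no overlap. Its log2 fold change was 0.81 (SE 0.19, unadjusted p 0.00130, edgeR adjusted p 0.999), between 0.72 and 0.90 over all 13 alternatives. In microglia it was 0.48 (SE 0.27, edgeR adjusted p 0.737), the groups overlapped, and without KO replicate 2, at 80.2 CPM, it was 0.12.

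Mt2 in microglia averaged 1.35 ± 0.584 in WT against 4.26 ± 0.544 CPM in KO libraries (SD, n = 3), from 9 to 22 and from 46 to 56 counts. The log2 fold change was 1.64 (SE 0.74, unadjusted p 0.0436, edgeR adjusted p 0.658). It ranged from 1.31 to 1.85 over 12 alternatives, 5 of which gave an unadjusted p under 0.05, and with all 12 libraries in 1 fit the adjusted p was 0.0628. Astrocyte markers, which mark the cells richest in Mt2, summed to 357 to 757 in WT and 379 to 403 CPM in KO microglia, and all 10 had log2 fold changes below 0 in KO microglia (median -0.61). In astrocytes Mt2 averaged 122 ± 21.4 in WT against 163 ± 11.1 CPM in KO libraries (SD, n = 3). Its log2 difference there was 0.55 (SE 0.23, unadjusted p 0.0370, edgeR adjusted p 0.999), where the 10 astrocyte markers had a median of 0.18 and all lay above 0. The part of the markers in the Mt2 values of either cell type was not tested.

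Mt1 in microglia had a KO over WT value of -0.10 on the log2 scale (SE 0.20, edgeR adjusted p 0.935). In astrocytes its value was 0.55 (SE 0.38, edgeR adjusted p 0.999) with overlapping groups, and without KO replicate 2, the library at 2249 CPM, it was 0.03. Hsd11b1 in astrocytes stood at 0.53 (SE 0.29, unadjusted p 0.0948, edgeR adjusted p 0.999). Zbtb16 was at 0.48 (SE 0.71) in microglia and 0.42 (SE 0.27) in astrocytes. Sgk1 was at -0.04 (SE 0.26) in microglia, where leaving out WT replicate 1 turned it to 0.35, and at -0.46 (SE 0.44) in astrocytes. Per1 was at 0.08 (SE 0.23) and -0.11 (SE 0.25), Nr3c1 at 0.07 (SE 0.19) and 0.09 (SE 0.20), and Nr3c2 at -0.37 (SE 0.34) and 0.18 (SE 0.22), in microglia and astrocytes in turn. Groups overlapped in each of these, and the direction of Per1 and Nr3c1 turned under some alternatives in both cell types, as did that of Zbtb16 in microglia.

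The KO effect in astrocytes minus that in microglia was tested in 1 fit of the 12 libraries. It called 0 of the 10 genes, and 0% of all 17294 genes. At an unadjusted p under 0.05 there was 1 of the 10, Mt2, against 6.37% of all genes. Its difference was -0.997 (SE 0.41, unadjusted p 0.0292, edgeR adjusted p 0.711), a smaller log2 fold change in astrocytes than in microglia, and the median over all genes in this fit was 0.16. Without 8 abundant non-coding RNAs that median was 0.0028 and the difference of Mt2 was -1.15. For Fkbp5 the difference was 0.25 (SE 0.30, edgeR adjusted p 0.984) and for Tsc22d3 0.44 (SE 0.37, edgeR adjusted p 0.941). Without the 8 abundant RNAs these were smaller, at 0.10 for Fkbp5 and 0.26 for Tsc22d3.

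Other genes that glucocorticoids induce were read as a list of 30, all tested. Between KO and WT edgeR called 0 of the 30 in either cell type. In microglia 4 had an unadjusted p under 0.05, all higher in KO, against 7.42% of all genes (2.35% higher in KO). The list was split into 14 positive and 16 negative values with a median of -0.02. Among the 4 were Il1r2, the decoy receptor for interleukin-1, at 7.92, 22.8 and 12.9 in WT and 38.4, 42.9 and 34.1 CPM in KO microglia (log2 1.39, SE 0.34, edgeR adjusted p 0.439). Il1r2 is also carried by blood leukocytes. In all, 9 markers of blood leukocytes and border macrophages summed to 113 to 255 in WT and 123 to 213 CPM in KO microglia, with Cd3e at 0 in all of them. The border macrophage marker Cd163, among the 9, was at 25.3 to 66.8 in WT and 38.7 to 81.6 CPM in KO microglia. The sum thus does not give the content of blood leukocytes alone, and their part in the Il1r2 value was not tested. Sult1a1, a sulfotransferase, was at 23.2, 39.2 and 51.3 in WT and 76.4, 57.5 and 67.7 CPM in KO microglia (log2 0.81, SE 0.26, edgeR adjusted p 0.572). Dusp1, a phosphatase that switches off MAP kinases, was at 395, 238 and 380 in WT and 457, 690.0 and 523 CPM in KO microglia (log2 0.70, SE 0.23, edgeR adjusted p 0.587). The KO libraries lay above the WT libraries for all 3, as in 6.53% of all genes tested in microglia. These 3 were named for the smallest unadjusted p of the list in this same comparison, so their separation is no further evidence. In astrocytes 22 of the 30 values were positive and 8 negative, with a median of 0.12. Sult1a1 alone had an unadjusted p under 0.05 there (log2 0.54, SE 0.24, edgeR adjusted p 0.999), against 2.37% of all genes (1.13% higher in KO). Between cell types 14 of the 30 were called higher in astrocytes and 12 higher in microglia, against 36.4% and 28.2% of all genes tested. Among the 14 was Fam107a (log2 5.38), an actin-associated protein gene. Among the 12 were Dusp1 (log2 -4.01) and the TGF-β receptor gene Tgfbr1 (log2 -4.28).

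The chaperones, cofactors and steroid-handling genes around the receptor numbered 17, of which 15 were tested in microglia and 16 in astrocytes, with 0 called between KO and WT. In microglia 12 of the 15 values were negative (median -0.22). The drug and steroid efflux pump gene Abcb1a was at 7.84, 3.95 and 18.4 in WT and 2.04, 2.93 and 2.48 CPM in KO microglia (log2 -2.02, SE 0.58, edgeR adjusted p 0.542). Abcb1a is carried by endothelial cells of brain vessels, whose 6 markers summed to 21.6 to 77.1 in WT and 22.3 to 29.7 CPM in KO microglia; their part in this value was not tested. The receptor coactivator gene Ncoa1 stood at -0.59 (SE 0.21, edgeR adjusted p 0.587) in microglia. The chaperone gene Hsp90aa1 stood at -0.65 (SE 0.19, edgeR adjusted p 0.999) in astrocytes, with medians of the list near 0 there (-0.01). Between cell types 3 of the 16 were called higher in astrocytes and 7 higher in microglia, against 36.4% and 28.2% of all genes tested. Ncoa1, at log2 1.85, was among the 3. Among the 7 were H6pd, which supplies the cofactor of the Hsd11b1 enzyme, at log2 -2.68 and the chaperone gene Hspa8 at log2 -2.32.

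Close relatives of the 10 genes were read in the same way. Tsc22d1, a paralog of Tsc22d3, was at 37.6, 26.7 and 42.0 in WT and 13.3, 20.7 and 22.9 CPM in KO microglia, all KO below all WT, as in 6.57% of all genes tested there (log2 -0.92, SE 0.28, unadjusted p 0.00521, edgeR adjusted p 0.542). Tsc22d1 was higher in astrocytes than in microglia (log2 2.69), and in KO microglia markers of other cells had medians below 0, at -0.61 over 10 astrocyte, -1.26 over 6 endothelial and -1.21 over 5 ependymal and choroid plexus genes tested. The ependymal and choroid plexus markers summed to 846 to 2129 in WT and 344 to 868 CPM in KO microglia, and the part of these cells in the Tsc22d1 value was not tested. In astrocytes its log2 fold change was 0.22 (SE 0.19), and the difference between the cell types was 1.25 (SE 0.35, unadjusted p 0.00315, edgeR adjusted p 0.456). Tsc22d2 and Tsc22d4 had values between -0.09 and -0.03 in both cell types, and Sgk3 was at 0.26 in microglia and 0.15 in astrocytes. Sgk2 had 0 counts in 8 of the 12 libraries and was not tested. Of 15 circadian clock genes tested, 12 were called higher in astrocytes, among them Nr1d1 (log2 4.93) and Cry2 (log2 3.65). Bhlhe41 (log2 -2.48) was the 1 called higher in microglia, and Per1 itself was also higher there. Over all genes tested the shares were 36.4% higher in astrocytes and 28.2% higher in microglia. Between KO and WT 0 clock genes were called, with 1 unadjusted p under 0.05 in microglia (Cry1, log2 -0.66, SE 0.30, edgeR adjusted p 0.665) and 1 in astrocytes (Nr1d2, log2 -0.62, SE 0.25, edgeR adjusted p 0.999). Such values made up 7.42% of all genes in microglia and 2.37% in astrocytes.

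Zinc transporters and the zinc-sensing factor Mtf1 made up a list of 16. Between cell types 5 were called higher in astrocytes and 7 higher in microglia, against 36.4% and 28.2% of all genes tested. The 5 were led by the importer gene Slc39a12 (log2 5.17) and the metal transporter gene Slc30a10 (log2 7.36). Slc30a10 had 14, 0 and 10 counts in WT and 0, 4 and 0 counts in KO microglia, which limits its estimate. The 7 included the importer gene Slc39a14 (log2 -2.06). Between KO and WT 0 of 15 in microglia and 0 of 16 in astrocytes were called. At an unadjusted p under 0.05 microglia had Slc39a10 (log2 0.48, SE 0.20, edgeR adjusted p 0.638) and Slc39a11 (log2 -0.62, SE 0.29, edgeR adjusted p 0.669), and astrocytes had 0. Such values made up 7.42% of all genes in microglia and 2.37% in astrocytes.

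**Figure D4:**
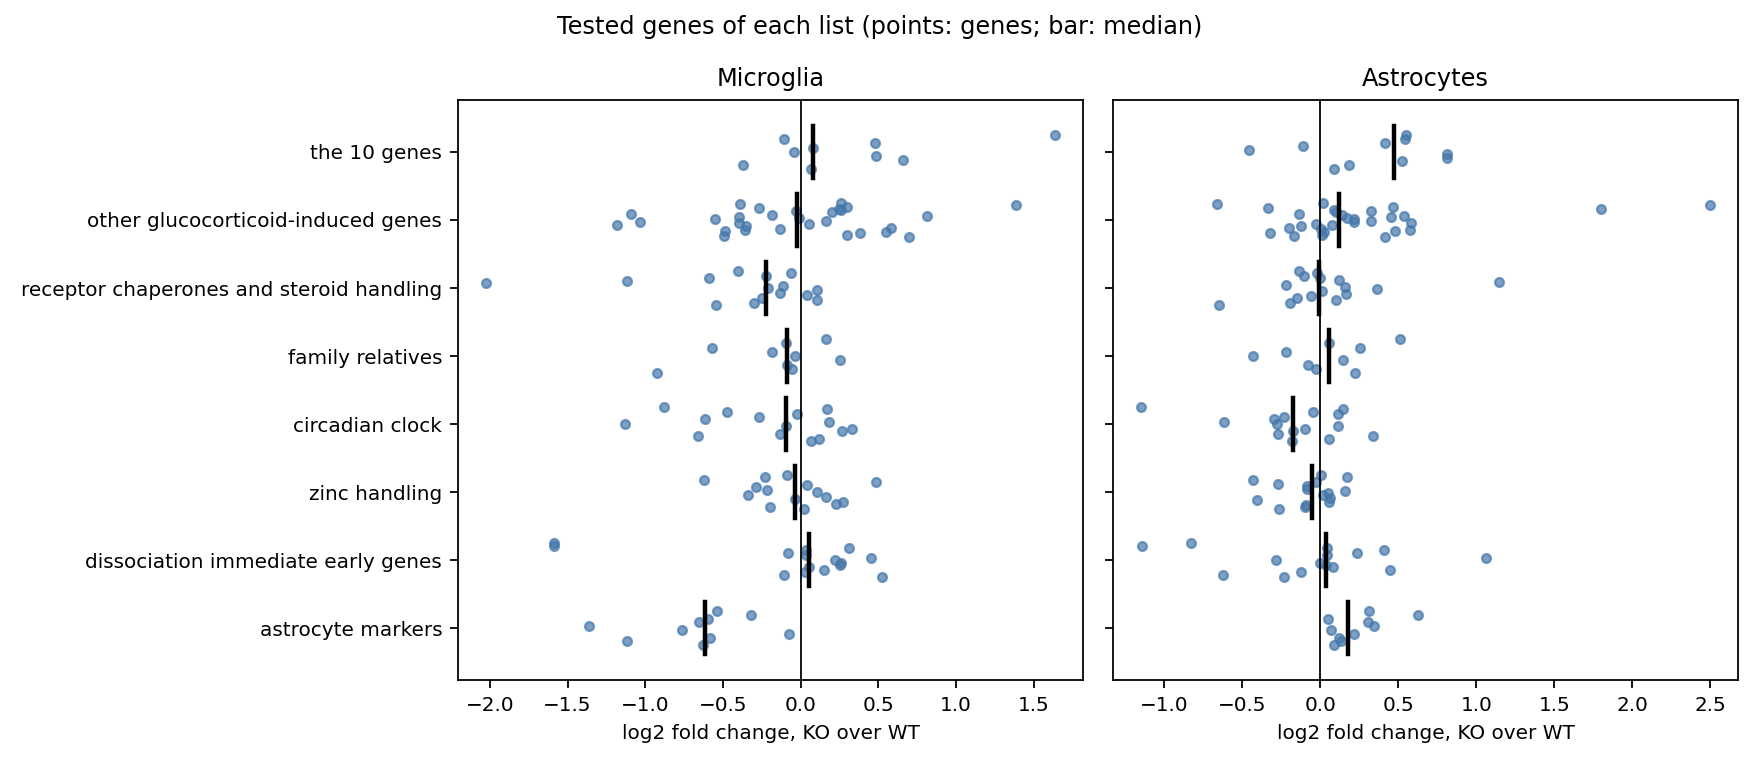
Log2 fold change of KO over WT for every tested gene of each list (points, with the list's median as a bar) in microglia and astrocytes. The 10 genes have medians of 0.08 and 0.47, the other glucocorticoid-induced genes -0.02 and 0.12, and the astrocyte markers -0.61 in microglia and 0.18 in astrocytes.

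Since each animal gave both cell types, the levels of 9 genes were set side by side across the 6 animals (Hsd11b1 left out). Over 9 exact permutation tests of Pearson's r and 9 of Spearman's rho, 0 passed an adjusted p under 0.05. For Fkbp5 and Mt2 the WT and KO animals formed separate clusters of 3, so no pooled r is given for them. With the genotype means removed, r was 0.02 for Fkbp5 and 0.48 for Mt2. Per1 ran in opposite directions, with r = -0.66 (exact permutation p 0.151, adjusted p 0.454), rho = -0.89 (exact permutation p 0.0333, adjusted p 0.263) and r = -0.60 without the 2 animals farthest from the median. Tsc22d3 had its top microglia and its top astrocyte value in different KO animals.

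**Figure D5:**
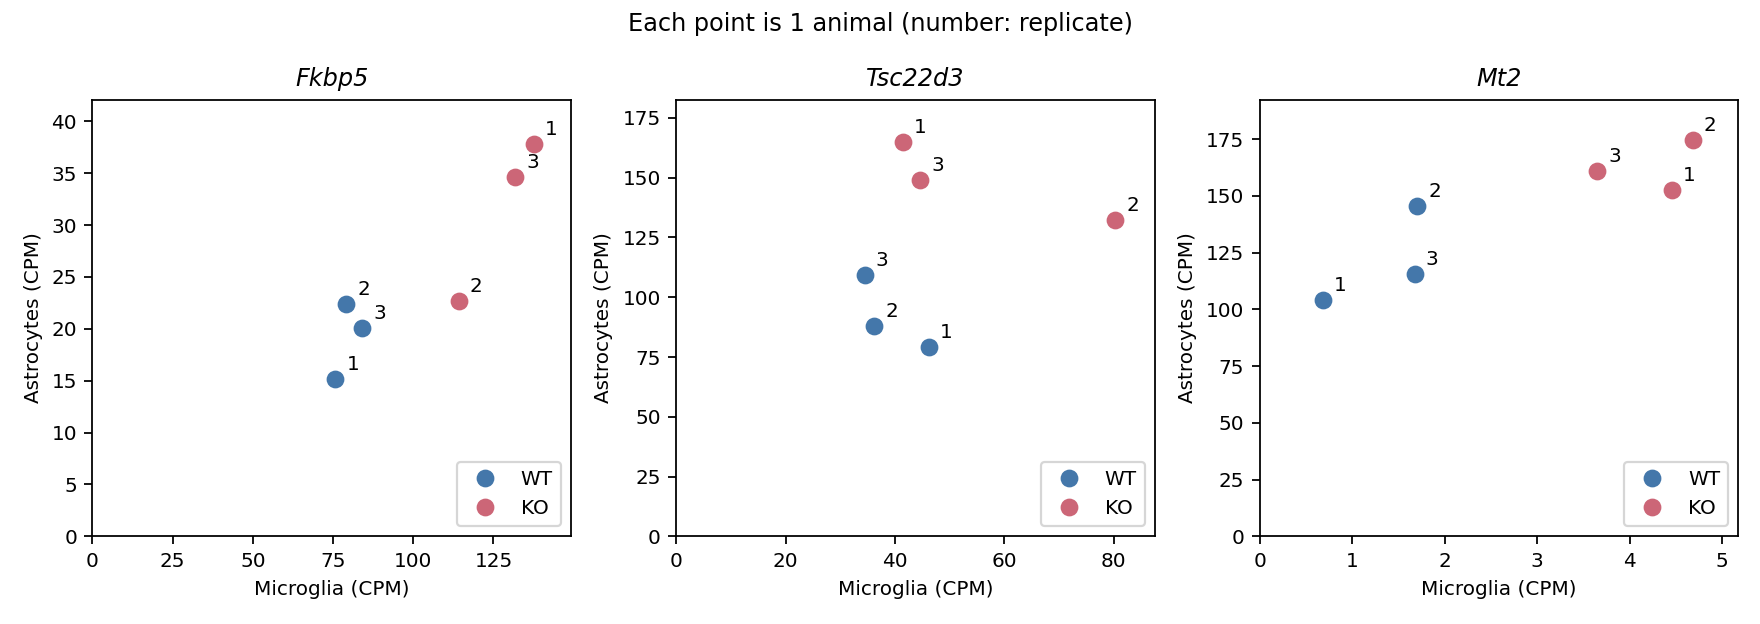
Astrocyte level against microglia level (CPM) of Fkbp5, Tsc22d3 and Mt2, 1 point per animal, labelled with its replicate number (blue WT, red KO). The 3 KO animals lie above and to the right of the 3 WT animals for Fkbp5 and Mt2, and above them for Tsc22d3.

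Genes whose pattern was most like that of Fkbp5 and Mt2 were sought over the 12 libraries, centred within each cell type, among 17293 genes, as a description without a test. For Fkbp5 these were Arhgap24 (Pearson r 0.91), Pigh (0.86) and Gemin2 (0.82), with Mt2 at place 149 (0.65) and Tsc22d3 at place 171 (0.64). For Mt2 they were Rnf13 (Pearson r 0.89), Psma3 (0.89) and Rsbn1l (0.88), while Mt1 stood at 0.10. The 12 libraries come from 6 animals and share their library depth and genotype split, so such r values describe this set only.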

How the data were processed

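RNA of sorted microglia and astrocytes was sequenced with full-length cDNA (SMART-Seq HT) and Nextera libraries, per the labels' protocols. The authors deposited estimated counts (RSEM expected counts), not normalized, as 1 table a cell type with gene symbols in rows; the submitters' processing notes list STAR 2.7.10b, RSEM 1.3.3, limma and the build GRCm39, and no annotation is named in the sources used here. Without molecular identifiers the counts hold amplified copies, so floors of 3 counts cover counting error only. Chi-square per degree of freedom between libraries of 1 group was 32 to 127, so none was taken for a repeat.

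Counts were rounded. Tests used edgeR 4.0.16 (R 4.3.3; quasi-likelihood, TMM, filterByExpr with a minimum count of 10, Benjamini-Hochberg adjustment over all genes tested) on the 6 libraries of a cell type, or on all 12 for the contrasts between cell types; SE is the log2 fold change over the square root of F. Scripts were tested on simulated data. Alternatives were DESeq2 1.42.0 (Wald test), its size factors, no filter, a minimum count of 50, removal of 8 abundant RNAs, a replicate block, 1 joint fit and each replicate left out. Lengths are median principal transcripts of GENCODE (GRCm38); promoters come from RefSeq (GRCm38.p6). Nr3c1 and Zbtb16 have no sequence shown. Named outside the 10 genes are up to 3 genes per list and comparison with the smallest unadjusted p, the relatives, and the 3 genes most like Fkbp5 and Mt2. The genes and lists were chosen with earlier results of these data known. Animal numbers in the labels tie each microglia to an astrocyte library; across genes, r between the deviations of such a pair was 0.002 to 0.093.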

Additional observations from a re-analysis of the deposited data

How the results depend on the processing

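Of the 10 genes, 0 were called between KO and WT in either cell type, and 0 for the difference between cell types, in every alternative run; 9 to 10 were called between cell types, the 9 without the animal WT replicate 1. Over all genes, the calls between KO and WT in microglia numbered 41 with DESeq2, 121 without a filter, 41 in the joint fit and 30 with the replicate block, and in astrocytes 4 with DESeq2 and 17 without a filter, where edgeR's main settings gave 0; for the difference between cell types DESeq2 called 62 and the fit without a filter 160. Correlations between the cell types of an animal that passed numbered 2 (Fkbp5 and Mt2) with CPM of the library total, and 0 to 0 with each animal left out. For both genes the WT and KO animals formed separate clusters, so these 2 passes do not tell a link within animals from the genotype split. With genotype means removed, r was 0.02 for Fkbp5 and 0.48 for Mt2. The following values changed sign. In microglia Sgk1 was 0.039 with the replicate block, and in the joint fit, where the median of all genes was -0.11, Nr3c1 and Per1 were -0.0192 and -0.0193. For the difference between cell types, Zbtb16 was -0.034 with DESeq2, -0.0325 with its size factors, -0.12 without a filter and -0.12 without abundant RNAs, and Nr3c1 was -0.049 and -0.043 in the last 2. With genotype means removed, r was 0.17 for Nr3c2 and -0.084 for Tsc22d3. With each replicate left out, KO against WT in microglia ranged from -0.0415 to 0.16 for Nr3c1, -0.23 to 0.35 for Sgk1, -0.12 to 0.25 for Per1 and -0.0044 to 0.89 for Zbtb16. In astrocytes it ranged from -0.24 to 0.077 for Per1 and -0.006 to 0.14 for Nr3c1. The difference between cell types ranged from -0.46 to 0.38 for Zbtb16, -0.23 to 0.19 for Nr3c1, -0.84 to 0.12 for Sgk1, -0.46 to 0.23 for Per1 and -5.47 to 1.31 for Hsd11b1, and r from -0.49 to 0.69 for Sgk1, -0.20 to 0.71 for Tsc22d3 and -0.50 to 0.52 for Nr3c2. The cause was not tested. WT and KO libraries of the same number had deviations that correlated at 0.134, 0.051 and 0.197 (microglia) and at -0.021, 0.049 and 0.231 (astrocytes). Those of different numbers correlated at -0.161 to 0.03 (microglia), below every pair of the same number, and at -0.164 to 0.095 (astrocytes). Whether the numbers mark a pairing of WT with KO libraries is not given by the labels and was not tested. The replicate block changed no call of the 10 genes. With 3 animals a genotype and counts of 0 to 28 (Hsd11b1) or 9 to 56 (Mt2) in microglia, depth limits both there.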
